A study of Homo sapiens with 27 samples.

Results

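Cytosolic sulfotransferases were followed here as 6 genes, SULT1A1, SULT1A2, SULT1B1, SULT1C2, SULT1E1 and SULT2A1, among 17426 genes named on the array. They were picked by gene name and lie on 8 of the 41000 probes. All 6 genes could be tested with 8 compounds, among 17417 tested genes, and 5 of them with the ninth, among 14230 tested genes; SULT1B1 was too dim there. The cells were HepG2, a line from a human hepatocellular carcinoma, exposed for 48 h to 1 of 9 polycyclic aromatic hydrocarbons. The smallest were naphthalene (NP) and phenanthrene (PH), followed by the isomers chrysene (CHR) and benzo[a]anthracene (BA) and the isomers benzo[k]fluoranthene (BF) and benzo[a]pyrene (BaP). The others were dibenzo[a,h]anthracene (DBA), the methylated 3-methylcholanthrene (3MC) and indenopyrene (IND). Each compound had 3 arrays, with exposed cells' RNA in the dye Cy5 and the RNA of solvent (DMSO) controls in Cy3, so each array holds its own control. Doses are not given in the labels, the dyes were never exchanged, and nothing says whether the 3 arrays of a compound come from separate cultures, so compounds are compared as applied and p-values measure only the spread between these arrays.

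Sulfotransferases of the cytosol move a sulfonate group from the cofactor PAPS onto hydroxyl and amino groups of hormones, drugs and environmental chemicals. The reaction is part of phase II metabolism and usually makes a compound easier to excrete. For some hydrocarbons it works the other way: sulfate esters of benzylic alcohols formed from them are reactive and can bind DNA, and the liver is a main site of these enzymes.

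The names in the files needed care for the SULT1C genes. The probe that the files call SULT1C1 carries a transcript accession that now belongs to SULT1C2, and the probe they call SULT1C2 carries an accession that now belongs to SULT1C4. Both probes are reported under their present names, so SULT1C2 below is the gene on chr2:108288895-108309915 (GRCh38.p14), and SULT1C4, at chr2:108377954-108388989, is given only as a neighbour. SULT1A1 (chr16:28605258-28623375) and SULT1A2 (chr16:28591943-28597050) are adjacent, near-identical genes, so that RNA of one could bind the probe of the other. SULT1B1 (chr4:69721167-69760620) and SULT1E1 (chr4:69821122-69860145) are neighbours as well, and SULT2A1 lies at chr19:47870467-47886315. Which exon or untranslated region a probe covers is not given in the sources used here.

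Promoters from RefSeq (GRCh38.p14) were at hand for 4 of the 6 genes. The 3 shown belong to the genes whose changes the results turn on, and each runs 5′ to 3′ on the gene's own strand from upstream of the start site to just beyond it. Capitals mark GCGTG, the core of the xenobiotic response element bound by the aryl hydrocarbon receptor, AGGTCA, a core motif of nuclear receptors, and TATAAA, the TATA box, each searched on both strands.
SULT1C2: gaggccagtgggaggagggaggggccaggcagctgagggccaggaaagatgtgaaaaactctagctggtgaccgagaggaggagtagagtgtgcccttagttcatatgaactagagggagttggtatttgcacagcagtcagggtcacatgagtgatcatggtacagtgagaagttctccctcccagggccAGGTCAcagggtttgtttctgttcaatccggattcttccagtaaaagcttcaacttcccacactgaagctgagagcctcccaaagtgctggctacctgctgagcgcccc
SULT2A1: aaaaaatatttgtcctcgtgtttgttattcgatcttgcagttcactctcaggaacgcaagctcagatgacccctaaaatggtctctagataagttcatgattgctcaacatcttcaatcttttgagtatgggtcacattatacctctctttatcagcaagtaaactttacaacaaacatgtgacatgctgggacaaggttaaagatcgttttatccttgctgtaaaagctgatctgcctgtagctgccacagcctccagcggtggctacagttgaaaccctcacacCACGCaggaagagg
SULT1E1: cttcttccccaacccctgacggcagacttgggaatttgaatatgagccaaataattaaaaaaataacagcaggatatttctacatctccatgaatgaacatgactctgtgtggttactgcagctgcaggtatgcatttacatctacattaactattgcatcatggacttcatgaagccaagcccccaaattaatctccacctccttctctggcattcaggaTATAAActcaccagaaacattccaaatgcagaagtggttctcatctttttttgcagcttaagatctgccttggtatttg
The SULT1C2 window (chr2:108288645-108288944) holds AGGTCA on its own strand and no GCGTG, the SULT2A1 window (chr19:47886266-47886565) holds GCGTG on the opposite strand, written CACGC, and the SULT1E1 window (chr4:69860096-69860395) holds TATAAA. Of 35116 promoters of the same length, 36.5% hold GCGTG, 13.8% AGGTCA and 11.5% TATAAA. A match is a string of letters, and its use in these cells was not measured.

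A gene was called higher or lower than DMSO at an adjusted p under 0.05 and at least a 1.5-fold change. With PH, 3 of the 6 genes were called, where 18.5% of all tested genes were. BF gave 3 of 6 beside 36.4% of all genes, BaP 2 of 6 beside 25.1%, and IND 2 of the 5 tested beside 23.9%. NP gave 1 of 6 beside 19.3%, CHR 1 of 6 beside 24%, 3MC 1 of 6 beside 11.2%, DBA 1 of 6 beside 10.4% and BA 1 of 6 beside 5.14%, or 10.5% without BA array 1, which stands apart as described below. The median log2 ratio of the 6 genes was 0.37 with PH, beside 0.042 over all genes, and -0.44 with BF, beside -0.0082. Under median centring of each array without loess, an alternative normalisation, the BF median was -0.25 and the BF calls were 1 higher and 1 lower in place of 3 lower. Of the 6 genes, SULT1C2 was called with 8 of the 9 compounds, SULT2A1 with 3, SULT1A1 with 2, SULT1A2 and SULT1E1 with 1 each, and SULT1B1 with none.

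**Figure D1:**
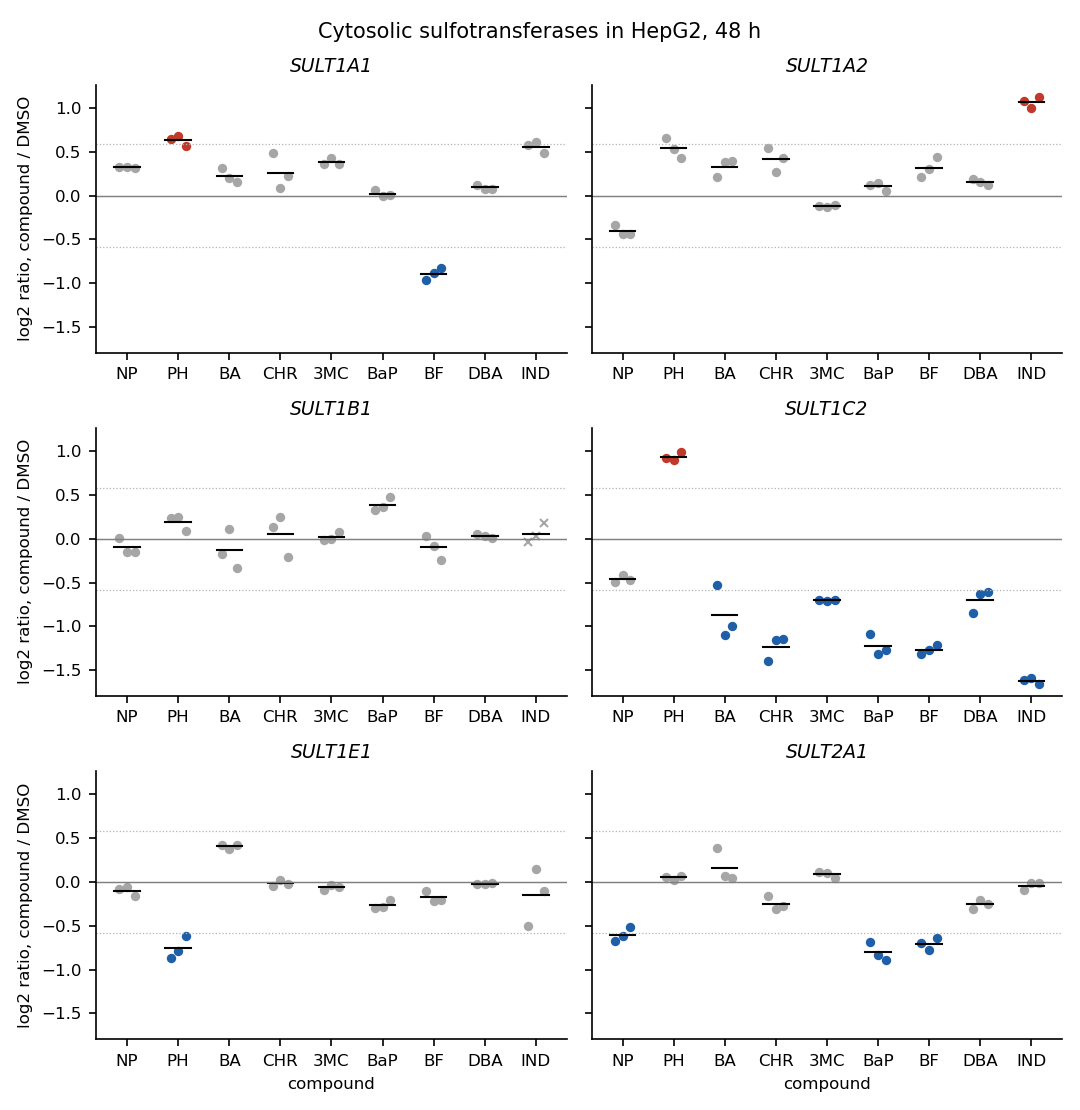
Log2 ratio of compound over DMSO for the 6 genes (panels), with 1 point per array, 3 arrays per compound, and a bar at their mean; red points were called higher, blue lower, grey not called, crosses not tested, and dotted lines mark a 1.5-fold change. SULT1C2 lies below 0 with 8 of 9 compounds and at 0.94 with PH. The BF values of SULT1A1 and SULT2A1 depend on the normalisation: with median centring in place of loess SULT1A1 stands at -0.0029 and SULT2A1 at -0.31.

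The arrays fall into sets that bear on how the values can be read. Arrays of DBA, 3MC and NP came from scanner files of another layout and were much dimmer, with a median Cy5 signal over background of 36 to 124, against 299 to 1484 on the other arrays. IND was run on a platform of its own. BA array 1 stood apart, with a correlation of 0.18 and 0.13 across genes with BA arrays 2 and 3, against 0.86 between those arrays, so the main BA values are given without it too. Without it SULT1A1 was 0.18 and SULT1A2 0.39 with BA, neither called. All 10 hepatocyte markers, ALB and AFP among them, were above background in a channel on every array. They moved with the compounds: 10 of 10 fell with BF (median -1.62), 8 with IND (-1.31) and 7 with BaP (-0.83), and 6, 6 and 4 after median centring. For PH, CHR and DBA median centring moved the balance: with PH 3 fell and 1 rose after loess against 1 and 2, with CHR 5 and 2 against 1 and 2, and with DBA 4 and 1 against 2 and 5. With NP 5 fell under both, and with BA 2 fell after loess, 0 with median centring and 5 without BA array 1. Of all genes after loess, 36.4% were called with BF, 23.9% with IND, 25.1% with BaP and 18.5% with PH. With CHR 24% were called, with DBA 10.4%, with NP 19.3% and with BA 5.14%, or 10.5% without array 1. Of markers of other cell types, 1 of 4 endothelial (VWF), 1 of 5 fibroblast (THY1) and 0 of 4 leukocyte genes were above background on all 27 arrays. CD68 and CD3E were nonetheless above background on 26 of the 27, CD14 on 24 and PTPRC on 19. Of the leukocyte genes 2 rose with PH and 3 with CHR (medians 0.75 and 0.85), among them CD68 and CD14. The part of these markers in the sulfotransferase values was not tested, and in bulk RNA fewer cells and less RNA per cell cannot be told apart.

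SULT1C2, an enzyme that sulfates small phenols, was the gene with the widest response. It fell with 7 compounds, by 1.62-fold with DBA to 3.07-fold with IND, whose Cy5 spot was not above background. It rose 1.92-fold with PH, and was not called with NP, where it stood at a log2 ratio of -0.45 ± 0.041 (SD, n = 3). Its probe was above background on all 27 arrays in Cy3 and on 24 in Cy5, the exceptions being those of IND.

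With PH the 3 arrays read log2 ratios of 0.92, 0.90 and 0.99. Their mean was 0.94 ± 0.049 (SD, n = 3), with a limma adjusted p of 6.50e-10. The Cy5 signal over background was 3990, 3631 and 4201 on these arrays, against 2373, 2134 and 2175 in Cy3. All 3 PH values lie above every value of the other 8 compounds.

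The largest decrease was with IND, at -1.61, -1.59 and -1.65, a mean of -1.62 ± 0.032 (SD, n = 3) with an adjusted p of 1.28e-07. The IND channel was not well above background on any of these arrays. The 3.07-fold decrease is thus a point estimate that rests on little Cy5 signal, though the spot was brighter than the dimmest probes above background. Over the settings tried, the log2 ratio with IND ran from -1.86 to -1.60. BF gave -1.31, -1.27 and -1.21, a mean of -1.26 ± 0.048 (adjusted p 1.76e-12). BaP gave -1.09, -1.32 and -1.27 and CHR gave -1.40, -1.16 and -1.14, so these compounds overlap each other and lie apart from the remaining ones, save BA.

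BA array 1 read -0.53, while arrays 2 and 3 read -1.10 and -0.996. The mean over all 3 arrays was -0.87 ± 0.30 (SD, n = 3; adjusted p 3.24e-08), and -1.05 without array 1 (adjusted p 3.00e-11). Fitted on its own 3 arrays alone, BA lost the call, with an adjusted p of 0.137, while over all settings tried for this value the log2 ratio ran from -1.08 to -0.76.

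On the dim arrays the decreases were smaller after normexp and loess. 3MC gave -0.69, -0.71 and -0.70, with signals of 130 to 144 in Cy5 against 337 to 340 in Cy3. DBA gave -0.84, -0.63 and -0.61, with only 35 to 40 in Cy5 and 76 to 97 in Cy3, and the scanner software had marked the spot as not found on arrays 2 and 3. Over the settings tried DBA ran from -1.29, with plain background subtraction, to -0.62, and 3MC from -0.91 to -0.68. NP gave -0.49, -0.41 and -0.47, short of the 1.5-fold threshold. The value computed from the authors' deposited log2 ratios, at hand for NP arrays 2 and 3 only, was -0.60. The part of the low signal in the smaller values was not tested.

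Among the 8 compounds of the shared platform SULT1C2 was called lower with 6, and 281 of 17417 genes, or 1.61%, were called lower with at least 6. Of those 281 genes, SULT1C2 was the only gene also called higher with PH. The level in the DMSO channel, after scaling between arrays, was 9.55 to 10.25 on the log2 scale over the bright arrays of the 5 compounds, with PH at 10.12. The exposed channel was 11.05 with PH and 8.67 to 9.03 with BA, BF, CHR and BaP.

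In order from highest to lowest at the main setting, the SULT1C2 ratio ran PH, NP, DBA, 3MC, BA, BaP, CHR and BF. NP, DBA and 3MC are the compounds of the dim arrays. DBA reached -1.29 with plain background subtraction, while BA stayed between -1.08 and -0.76 over the settings tried. The place of DBA thus depends on the background correction. NP minus PH was -1.39 on the log2 scale (95% interval -1.61 to -1.17, 23.4% of genes called), between arrays that differ in layout too. Of the remaining neighbours in that order no pair was called. The interval was -0.23 to 0.22 between 3MC and DBA and -0.23 to 0.22 between CHR and BaP. Benzo[a]anthracene and chrysene, isomers that differ in how their rings are joined, differed by 0.36 in BA minus CHR (95% interval 0.13 to 0.58, adjusted p 0.0073), less than 1.5-fold, where 18.6% of genes were called. Without BA array 1 the difference was 0.19 (0.014 to 0.36). The isomers BaP and BF differed by 0.037, with an interval of -0.19 to 0.26, and by 0.24 (0.012 to 0.47) with median centring.

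SULT1C4, the neighbour whose probe the files call SULT1C2, moved the opposite way with 3 compounds, and with BA once BA array 1 was left out. With BA it was 0.40 ± 0.41 (SD, n = 3) and not called, but 0.64 and called without array 1. With IND it stood at 0.080 ± 0.14 (SD, n = 3) and was not called. SULT1C4 rose over all arrays with CHR (0.95 ± 0.11), BF (0.83 ± 0.072) and BaP (0.76 ± 0.056, SD, n = 3 each), the compounds with which SULT1C2 fell most on the shared platform. On the same arrays the ratio of SULT1C2 minus that of SULT1C4 was -2.18 ± 0.061 with CHR, -2.10 ± 0.037 with BF and -1.99 ± 0.12 with BaP. With PH it was 1.07 ± 0.13, since SULT1C4 stood at -0.13 and was not called. With BF the SULT1C4 spot was above background in Cy5 on 2 of 3 arrays and in Cy3 on 1, so its BF values rest on little signal. Read by the names in the files, the calls for CHR, BF and BaP would be those of the other gene.

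**Figure D2:**
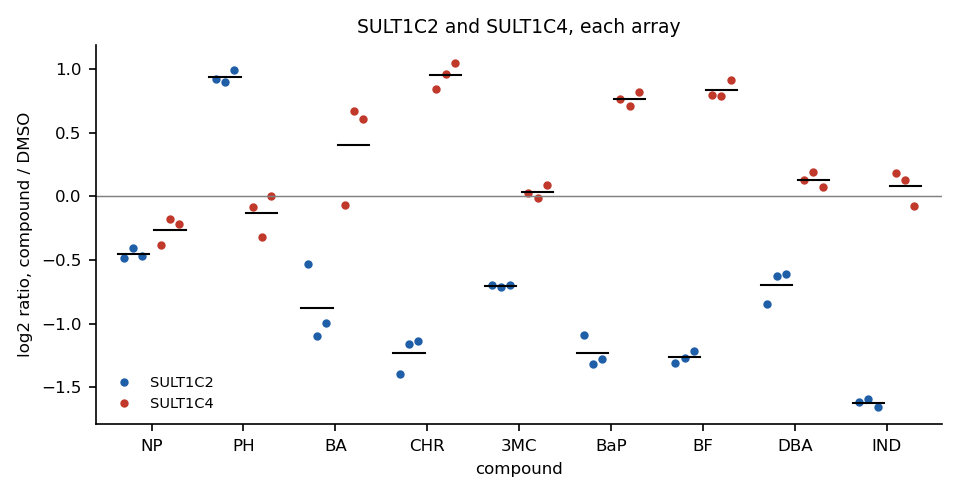
Log2 ratio of compound over DMSO on each array for SULT1C2 (blue) and SULT1C4 (red), with bars at the means of 3 arrays. With CHR, BaP and BF the SULT1C4 means lie at 0.95, 0.76 and 0.83 and the SULT1C2 means at -1.23, -1.23 and -1.26, and with PH SULT1C2 is at 0.94 and SULT1C4 at -0.13.

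SULT2A1, which sulfates dehydroepiandrosterone and bile acids and also acts on hydroxymethyl hydrocarbons, fell with BaP and NP, and with BF after loess but not with median centring. It was above background on all 27 arrays on its brighter probe. BaP gave log2 ratios of -0.68, -0.83 and -0.88, a mean of -0.80 ± 0.11 (SD, n = 3; adjusted p 3.70e-11). BF gave -0.69, -0.78 and -0.64, a mean of -0.70 ± 0.069 (adjusted p 1.90e-10), and NP gave -0.68, -0.62 and -0.51, a mean of -0.60 ± 0.086 (adjusted p 4.96e-09). BF values overlap those of BaP and those of NP, but every BaP value lies below every NP value, at -0.680 against -0.678 where they are nearest. All values of these 3 compounds lie below those of the other 6.

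The remaining compounds left SULT2A1 uncalled, at -0.25 ± 0.052 with DBA, -0.25 ± 0.073 with CHR, -0.040 ± 0.047 with IND, 0.054 ± 0.023 with PH, 0.087 ± 0.039 with 3MC and 0.17 ± 0.19 with BA. Without array 1 the BA mean was 0.057. The isomers BA and CHR differed by 0.41 in BA minus CHR (95% interval 0.25 to 0.58, adjusted p 1.32e-04), below 1.5-fold, and by 0.30 without BA array 1. BaP minus BF was -0.096 after loess, with an interval of -0.26 to 0.069, and -0.35 (-0.51 to -0.19) with median centring.

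How firm the calls are differs among the 3 compounds. BaP kept its call under every setting tried at 1.5-fold. The BF value fell to -0.31 and lost its call when arrays were centred on their median without loess. The NP value sits at the threshold. It was -0.56 without NP array 1 and -0.57 with spots not found left out, each short of 1.5-fold. The authors' deposited values gave -0.56, also short, but only from NP arrays 2 and 3, the same arrays as without array 1.

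A dimmer second probe of SULT2A1 gave the same direction with these compounds and larger ratios. It read -1.23 ± 0.077 with BaP, -0.95 ± 0.11 with BF and -0.81 ± 0.097 with NP (SD, n = 3 each). On the same arrays it was lower than the brighter probe by -0.43 ± 0.10 with BaP, -0.25 ± 0.16 with BF and -0.21 ± 0.032 with NP. With PH its raw level varied more between arrays: its Cy3 signal was 2762, 853 and 286 on the 3 arrays, against 6652, 4978 and 5912 for the brighter probe, although the ratios of both stayed within 0.13 of 0.

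**Figure D3:**
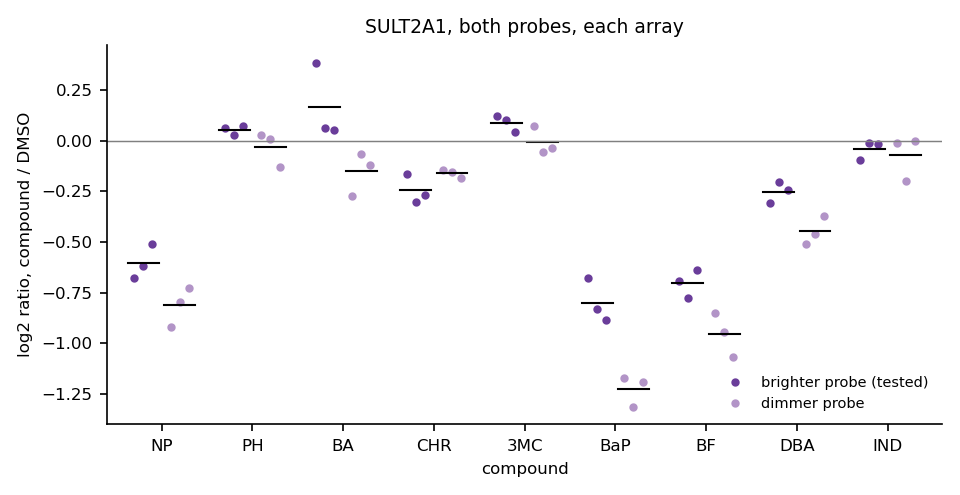
Log2 ratio of compound over DMSO on each array for both probes of SULT2A1, dark for the brighter probe, which was tested, and light for the dimmer probe, with bars at the means of 3 arrays. After loess both probes lie below -0.50 on every array of NP, BaP and BF (with median centring the brighter probe is at -0.31 with BF), and the dimmer probe is lower with each, at -1.23 against -0.80 with BaP.

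SULT1A1, the main phenol sulfotransferase of the liver, and SULT1A2, its close paralog, were among the bright probes. The Cy5 signal over background of SULT1A1 was 14004 to 62930 on the bright arrays and 596 to 2829 on the dim ones. Over 10% of the pixels were saturated on 1 array for SULT1A1 and on 8 arrays for SULT1A2, up to 92%, in Cy5 and only with PH, BA, CHR or BF, so the ratio can be understated there.

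SULT1A1 rose with PH, at 0.65, 0.68 and 0.56, a mean of 0.63 ± 0.061 (SD, n = 3; adjusted p 1.12e-09). It fell with BF after loess, at -0.97, -0.88 and -0.83, a mean of -0.89 ± 0.070 (adjusted p 1.46e-12), but stood at -0.0029 (adjusted p 0.967) with median centring alone, so no change against DMSO can be given for BF apart from the normalisation. The other values ran from 0.019 ± 0.039 with BaP to 0.56 ± 0.066 with IND, all above 0 and none called. Median centring raised the values of CHR, BA and IND to 0.75, 0.71 and 0.92, which were then called.

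The differences between compounds were called for SULT1A1 after loess in 8 of 28 pairs, beside 24.5% of all tests of a gene and a pair. All 7 pairs with BF are among them, and the other is PH minus BaP, at 0.61 (95% interval 0.46 to 0.77), where 21.8% of genes were called. BaP minus BF was 0.91 (0.76 to 1.07, adjusted p 1.15e-09), a pair in which 35.3% of genes were called. With median centring it was 0.36 and not called, and 3 of the 8 pairs kept their call, namely PH, BA and CHR against BF (0.86, 0.71 and 0.75). A dye bias that is the same on all arrays cancels in these contrasts.

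SULT1A2 was called with IND alone, at 1.08, 1.00 and 1.13, a mean of 1.07 ± 0.066 (SD, n = 3; adjusted p 9.12e-07), where its spots were not saturated. PH, at 0.65, 0.54 and 0.43, had a mean of 0.54 ± 0.11, just under the threshold, and passed it at 0.59 without PH array 3 and at 0.84 with median centring. NP was the lowest at -0.40 ± 0.060, and CHR, BA and BF lay between 0.32 and 0.42. Median centring took BF to 1.34, CHR to 0.95, BA to 0.83 and DBA to 0.67, all of them called. All 5 of the pairs called of 28 set a compound of the dim arrays against one of the bright arrays, and 0 of the 13 pairs of the same layout were called, with 13 of all 28 pairs under median centring.

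Set against each other on the same array, the paralogs moved unequally with some compounds. The ratio of SULT1A1 minus that of SULT1A2 was -1.21 ± 0.047 with BF, 0.73 ± 0.060 with NP, 0.50 ± 0.051 with 3MC and -0.51 ± 0.13 with IND (SD, n = 3 each). With PH, BA, BaP and DBA it lay between -0.10 and 0.093. The difference with BF was -1.34 under median centring, so this contrast did not depend on the choice that removed the SULT1A1 call.

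**Figure D4:**
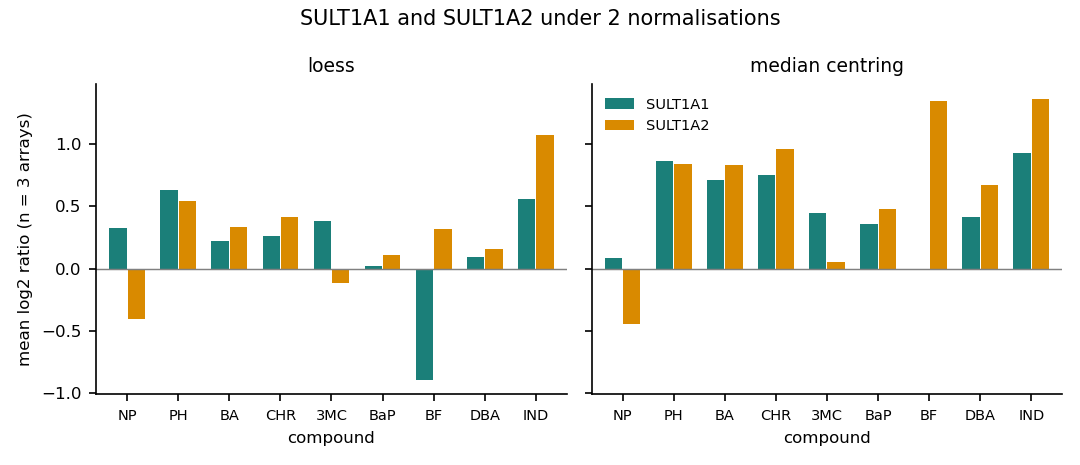
Mean log2 ratio (n = 3 arrays) of SULT1A1 (green) and SULT1A2 (orange) for each compound, after loess on the left and after median centring of each array on the right. With BF the bars change from -0.89 and 0.32 to -0.0029 and 1.34, while the gap between them is -1.21 and -1.34.

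The probe of SULT1A4, a further SULT1A gene with a near-identical copy, SULT1A3, whose RNA the probe may bind too, rose with PH (0.74 ± 0.26) and IND (0.66 ± 0.037; SD, n = 3 each), the compounds with the highest mean of SULT1A1 and SULT1A2 after loess. Its value depended on the normalisation as well, since with BF it was -0.20 ± 0.046 after loess, not called, and 0.65, called, with median centring. Median centring also called it higher with CHR, DBA, BaP and BA, at 0.97, 0.69, 0.62 and 0.61.

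SULT1E1, which sulfates estrogens with high affinity, was called lower with PH alone, though it was dim with most compounds. The 3 PH arrays read -0.87, -0.78 and -0.62, a mean of -0.76 ± 0.13 (SD, n = 3; adjusted p 1.74e-12), and all lay below the values of the other compounds. The spot was dim, with 117 to 179 in Cy5 and 252 to 359 in Cy3 on these arrays, and above background in both channels on each. BA gave 0.42, 0.37 and 0.43, a mean of 0.41 ± 0.029 that missed 1.5-fold and was 0.40 without array 1.

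SULT1E1 ratios of the remaining compounds lay between -0.26 ± 0.047 with BaP and -0.013 ± 0.031 with CHR. The spot was not above background in Cy5 on any DBA, 3MC or IND array. With NP, CHR and BF it was above background in Cy5 on only 1 of 3 arrays each. Its values with these 6 compounds rest on little signal. PH minus BA was -1.17 (95% interval -1.29 to -1.04, adjusted p 6.76e-13), the widest of the 6 called pairs of this gene, and 17.4% of genes were called there. SULT1C2 and SULT1E1 thus moved in opposite directions with PH, on the same arrays.

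SULT1B1, which sulfates thyroid hormones, was near background in these cells. Its brighter probe stood above background in either channel on 15 of 27 arrays and the other on 14. With BaP both probes were above background in both channels on all 3 arrays, and read 0.39 ± 0.075 and 0.37 ± 0.038 (SD, n = 3). The adjusted p of the brighter probe was 1.16e-04, below 1.5-fold. Plain background subtraction gave 0.61 and the authors' deposited values 0.67 for BaP, both called. The other 7 compounds tested lay between -0.13 and 0.19, where the brighter probe was at background in Cy5 with all but PH and 1 BA array.

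All 6 genes differed among the 8 compounds of the shared platform by limma's F test, with adjusted p from 4.77e-13 for SULT1C2 to 0.0019 for SULT1B1, as did 89.8% of all genes. Of 28 pairs of compounds SULT1C2 was called in 10, SULT2A1 in 9, SULT1A1 in 8, SULT1E1 in 6, SULT1A2 in 5 and SULT1B1 in 0. Over all genes, 24.5% of the tests of a gene and a pair were called. Within arrays of the same layout, which make 13 pairs, SULT1A1 and SULT2A1 were called in 5, SULT1C2 in 4 and SULT1E1 in 3. The share over all genes in these 13 pairs is not given here. Without BA array 1 the SULT1C2 count was 11, and the other counts were the same. With median centring 9 of the 10 SULT1C2 pairs kept their call, 7 of the 9 of SULT2A1, 5 of the 6 of SULT1E1, 5 of the 5 of SULT1A2 and 3 of the 8 of SULT1A1.

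The genes whose 8 compound means were most like those of a member were sought among genes above background on all 24 arrays whose means spanned at least 1 on the log2 scale. For SULT1C2 they were KCNMB3 (Pearson r 0.97), BAIAP2L2 (0.97) and HNRNPDL (0.96), chosen from 6314 genes. HNRNPDL shared the calls, lower at -1.06 with CHR, -1.02 with BF and -0.86 with BaP, but stood at 0.36 with PH and was not called there. KCNMB3 rose with PH, at 2.43, and was not called lower with any of the 8. For SULT1A1 they were FMNL2 (0.98), RGMA (0.98) and NIPSNAP1 (0.98), and for SULT2A1 PAQR8 (0.96), TLCD4 (0.91) and KLHL14 (0.89). SULT1A2 was most like LDHA (0.97), SULT1B1 most like SNX1 (0.96) and SULT1E1 most like PCYT1B (0.90). With 8 points and this many candidates such values are descriptions.

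Genes that serve or oppose the sulfotransferases were followed as lists. Of 12 genes for sulfate import, PAPS synthesis and transport and PAP breakdown, 5 fell and 1 rose with BF (median -0.19, beside -0.0082 over all genes), against 3 and 2 with median centring. With PH 2 rose and 2 fell. Of all genes 36.4% were called with BF and 18.5% with PH. PAPSS1, which makes PAPS, fell with PH (-1.06 ± 0.041) and IND (-0.72 ± 0.16), and with BF after loess (-1.11 ± 0.072; SD, n = 3 each) but not with median centring (-0.54). BPNT1, which breaks down the by-product PAP, fell with the compounds of the dim layout, NP (-2.11), 3MC (-1.78) and DBA (-0.59, or -0.54 and not called with median centring), and rose with CHR and BF (0.83 each). The sulfate carrier SLC26A6 fell with BF (-1.40) and rose with PH (0.68). Of 7 sulfatases and activators tested, which remove sulfate or activate the enzymes that do, 5 fell with BF (median -0.83), beside 36.4% of all genes called. With median centring 4 fell. ARSA was among those that fell with BF (-1.10), but rose with BaP (0.95). Of 15 Golgi sulfotransferases, which act on proteins and glycans, 6 fell and 3 rose with BF, where 36.4% of all genes were called, and 1 fell and 5 rose with BaP, where 25.1% were. CHST13 (-2.20) and HS6ST1 (-1.66) fell most with BF. SULT4A1, a further cytosolic member known from brain, fell with BaP (-1.31 ± 0.13), BF, IND and CHR, with both channels above background on all 3 arrays only for BaP. A second, dimmer SULT4A1 probe did not show the fall, at 0.079 with BaP, -0.10 with BF, 0.039 with IND and -0.15 with CHR. It was not above background in either channel on any array of these compounds.

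Of 18 receptors and factors known for control of hepatic sulfotransferase genes, 8 fell and 1 rose with CHR, 7 fell and 3 rose with BF, and 5 rose and 0 fell with PH. Of all genes 24%, 36.4% and 18.5% were called with these compounds. NR1H4, the bile acid receptor, fell with BaP (-2.73), CHR (-1.98) and BF, where 1 of 3 arrays was above background in Cy5. Without BA array 1, NR1H4 was also called lower with BA (-1.43). HNF4A, a factor of hepatocyte identity, rose with PH (0.66) and fell with BF after loess, as all 10 hepatocyte markers did. Its values with the other compounds are not given here. CEBPA rose with PH (0.72) and fell with BF (-2.46), CHR (-1.85), IND (-1.80) and BA (-1.01, or -1.52 without BA array 1), and with BaP and DBA after loess only. The part of these factors in the sulfotransferase values was not tested.

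Of 6 genes driven by the aryl hydrocarbon receptor, 6 rose with CHR and IND, 5 with BaP and BF, 4 with BA and DBA, 1 with PH and 3MC and 0 with NP. Of all genes 24% were called with CHR, 23.9% with IND, 25.1% with BaP, 36.4% with BF and 5.14% with BA. With DBA 10.4% were called, with PH 18.5%, with 3MC 11.2% and with NP 19.3%. CYP1A1 stood at 6.23 with BF, 6.16 with IND, 5.81 with CHR, 5.70 with BaP, 4.36 with BA, 3.45 with DBA, 2.90 with 3MC, 2.63 with PH and 0.47 with NP. SULT1C2 was at -1.26, -1.62, -1.23, -1.23, -0.87, -0.69, -0.70, 0.94 and -0.45 with the same compounds in that order. CYP1A1 read 0.58 on BA array 1 and 6.25 and 6.23 on BA arrays 2 and 3, so its BA mean without array 1 was 6.24. CYP1A1 was partly saturated with BF, IND, CHR, BaP and BA, so its values there are low estimates. The values of DBA, 3MC and NP come from the dim arrays. There the SULT1C2 ratio with DBA ran from -1.29 to -0.62 over the settings tried. A link between the CYP1A1 and SULT1C2 values was not tested.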

How the data were processed

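Two-colour Agilent arrays of HepG2 RNA were analysed, 3 per compound. The authors deposited scanner output, neither normalised nor background-subtracted: per the file headers, spot intensity and nearby background for each dye, and the percent of saturated pixels. They also deposited log2 ratios whose normalisation is not given in the sources used here; 20 of 27 columns could be tied to spots by their values and were used as an alternative.

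Files were read with pandas 2.3.3 (Python 3.11.15), tests ran in limma 3.58.1 under R 4.3.3, and matplotlib 3.10.9 drew the plots. Background was corrected by normexp (offset 50) and each array normalised by loess, with control spots at weight 0 and spots flagged bad (-75) left out. The filter kept probes that exceeded local background by 2 of its SDs, in Cy5 or Cy3, on 2 or more arrays of some compound. Transcript accessions, then symbols, gave names to 26879 of 41000 probes, and the probe with the highest mean intensity stood for its gene. The 24 arrays of 8 compounds were fitted together, with 1 mean per compound, and IND alone. Tests were 2-sided; p-values were adjusted by Benjamini and Hochberg over genes within a compound, and for the 28 pairs over genes and pairs. The fit was tested on simulated data. The number of arrays limits the precision.

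The members and lists were chosen with earlier results of these data known. Named genes are all members with every probe, up to 4 genes per list that passed with the largest log2 ratio, and the 3 genes of most like pattern. Alternatives covered background correction, normalisation, filter, probe rule, array weights, threshold, fit and arrays left out. Same-numbered arrays of different compounds did not deviate together (mean correlation 0.0033 over 84 pairs).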

Additional observations from a re-analysis of the deposited data

How the results depend on the processing

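Of 1012 values of a gene and compound under an alternative, 948 kept their direction and call or lack of one, 34 passed the threshold only under the alternative, 16 lost their call and 14 changed sign, each of them not called under either setting. With median centring SULT1B1 became 0.18 with NP and -0.0042 with DBA, SULT1E1 0.13 with NP, SULT1A2 0.055 with 3MC and SULT2A1 0.093 with IND. With array weights SULT1B1 was 0.060 with BA and SULT1E1 0.0041 with CHR, with the authors' deposited values SULT1B1 was 0.082 with BA and SULT1A1 -0.018 with BaP, and with the mean of probes SULT1B1 was -0.023 with 3MC. Leaving out 1 array at a time, SULT1A1 ran from -0.0031 to 0.034 with BaP, SULT1B1 from -0.010 to 0.037 with 3MC and from -0.037 to 0.19 with CHR, and SULT1E1 from -0.30 to 0.025 with IND, the low or high end falling without BaP array 1, 3MC array 3, CHR array 2 and IND array 1. Dropping the fold threshold changed 21 of the 1012 values and asking for 2-fold 10. With an adjusted p alone, the number of sulfotransferase genes called was 5 with NP, PH, BA and BF, 4 with CHR and BaP, 3 with DBA and 2 with 3MC. Of all 17417 genes that setting called from 7073 with DBA to 12468 with BF. At 2-fold the sulfotransferase count was 0 with NP, PH, BA, 3MC and DBA and 1 with BaP and BF. That threshold called from 156 of all genes with BA to 3198 with BF. Median centring without loess gave 3 with BA, 3 with CHR and 2 with DBA, and 13 pairs for SULT1A2 and 3 for SULT1B1. The share of all genes in those pairs is not given here. Of 17417 genes this centring called 2276 with BA, 4561 with CHR and 2273 with DBA. It also moved the share of all calls that were higher from 29.6% to 71.1% with DBA, 60.1% to 72.8% with BaP, 34.7% to 16.9% with NP and 44.1% to 56.9% with BF, while the median of all genes stayed within 0.1 of 0. The authors' deposited values gave 0 with DBA, where they hold no value for SULT1C2; the strict filter gave 1 with IND, where it left SULT1C2 untested; a fit of BA alone gave 0; and leaving out spots not found gave 0 with NP. Without 1 array in turn the counts were 0 to 1 with NP, 3 to 4 with PH, 2 to 3 with IND, 2 with BaP, 3 with BF and 1 with BA, CHR, 3MC and DBA; array 1 decided NP, array 3 PH and array 3 IND. Pairs without BA array 1 numbered 11 for SULT1C2, 8 for SULT1A1, 5 for SULT1A2, 6 for SULT1E1, 9 for SULT2A1 and 0 for SULT1B1. Array numbers only name arrays; with array number as a replicate block, all 48 values of the shared platform kept their call and SULT1C2 was called in 10 pairs.

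Signal over background limits SULT1B1 and SULT1E1, and SULT1C2 with DBA and IND. Saturation limits SULT1A2. Dyes were never exchanged, so a gene's own dye bias stays in its ratio against DMSO.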
